A study of Gallus gallus with 8 samples.

Results

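Enzymes that oxidise, reduce or conjugate small molecules and peroxides were compared between the utricle and the cochlea of the chick. Genes were taken by name, from the aldehyde dehydrogenases (ALDH), alcohol dehydrogenases (ADH), aldo-keto reductases (AKR), short-chain dehydrogenases (DHRS), hydroxysteroid dehydrogenases (HSD), cytochromes P450 (CYP), glutathione transferases (GST), glutathione peroxidases (GPX), peroxiredoxins (PRDX) and thioredoxin proteins (TXN). The array named 91 such genes, and 65 of them passed the signal rule, more than 4 on the log2 scale in 4 or more of the 8 arrays. In all, 8355 of 14388 named genes passed it. The rule left out ALDH1A3, ADH6 and GSTTL, and 1 homeobox gene that shares the AKR letters was set aside. Each gene was read from 1 probe set, the one with the highest mean over the 8 arrays. For 12 of the 65 genes it is of the kind that can match transcripts of several genes, so which gene it measured is uncertain. These are AKR1A1, ALDH1L2, ALDH3A2, CYP27C1, CYP4V2, DHRS12, GSTO2, GSTA1_CHICK, GSTA2_CHICK, HSDL1, PRDX6 and TXNDC10.

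The samples were sensory epithelia of chick embryos, with no drug or other treatment named in the labels, at embryonic day 20 to 21, after incubation of fertilised eggs at 38 °C. One group of 4 arrays came from the utricle, a balance organ, and the other group of 4 from the cochlea, the hearing organ. The labels give no strain or genotype, and describe the dissected epithelia as holding hair cells and supporting cells alone. Each array carried labelled RNA of 10 to 20 pooled epithelia, with 0.08 μg of it used for labelling, and within a tissue the arrays are labelled as biological replicates. The number of arrays limits the precision.

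Aldehyde and retinal reducing enzymes, P450s and glutathione transferases form the first and second steps by which cells clear reactive aldehydes, sterols, retinoids and foreign compounds. Glutathione peroxidases, peroxiredoxins and thioredoxins remove peroxides and keep protein thiols reduced, drawing on NADPH. The inner ear is known for its sensitivity to peroxides and to drugs that form them, and retinoic acid, which is made and broken down by members of these families, patterns the developing ear.

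On each array between 41% and 41.8% of probe sets had a log2 signal above 4, and arrays correlated at 0.9929 or more within the utricle, at 0.9945 or more within the cochlea and at 0.9697 or less between them, across probe sets that are not independent. Of 8 named hair cell markers 7 were tested, with 3 calls toward the utricle and 2 toward the cochlea, and PCDH15 was at background. OTOF, toward the utricle, lost its call without cochlea array 2 or utricle array 2, 3 or 4 (adjusted p 0.0507 to 0.0724). ESPN, toward the cochlea, lost its call without cochlea array 2, 3 or 4 or utricle array 1, 2 or 3 (0.0562 to 0.101). SLC17A8 was called toward the utricle without utricle array 2 (0.00158) and with array weights (0.021). All 8 named supporting cell markers were tested, with 3 calls toward the utricle and 4 toward the cochlea. That of OTOA, toward the cochlea, was lost without cochlea array 4 or utricle array 3 (adjusted p = 0.0535 and 0.052). Among all named genes tested, 53.3% were called in either direction. Of 4 named melanocyte markers, OCA2 and DCT were tested and both were higher in the utricle, the log2 of the list's summed signal ran from 7.13 to 7.79 there and from 4.27 to 4.98 in the cochlea, and MLANA was at background. All 3 leukocyte markers tested were higher in the utricle (summed signal 10.73 to 10.84 against 9.97 to 10.33). That sum was close to CD3E alone, at 10.70 ± 0.06 in the utricle and 10.03 ± 0.16 in the cochlea. CSF1R lay at 6.19 and 4.78, and LAPTM5 at 4.61 and 3.72. LAPTM5 lost its call without cochlea array 1 or 3 (adjusted p = 0.056 and 0.0504) and with values under 4 raised to 4 (0.0602). Of 5 named neuron markers 3 were tested, with SNAP25 higher in the utricle (8.54 against 8.05, adjusted p = 0.0059), NEFL and NEFM higher in the cochlea, and STMN2 and SYT1 at background. The neuron list summed to 8.99 to 9.22 in the utricle and 13.02 to 13.11 in the cochlea, where NEFM alone read 12.83 against 2.59 in the utricle. Both tested muscle markers were higher in the cochlea (9.09 to 10.16 against 10.65 to 11.24), with MYOG at background. Of 4 erythrocyte markers tested, 1 (CA2) was called, toward the cochlea. The list's sum varied from 9.36 to 13.88 among utricle arrays and from 11.77 to 14.73 among cochlea arrays. CA2 alone read 11.50 to 12.25 on the cochlea arrays and 4.68 to 9.20 on the utricle arrays. The haemoglobins HBG2 and HBM varied widely within each tissue and were not called (differences 0.14 and 0.04, adjusted p = 0.937 and 0.982). Of 2 markers each tested under their listed names, fibroblasts and dark cells gave 0 calls. Endothelium gave 1 in each direction and liver 1 toward the cochlea, with ALB, APOH and TTR at background. CO1A2, the sheet's name for COL1A2 of the fibroblast list, was also tested and not called (difference 1.35). The endothelial marker PECAM1, toward the utricle, lost its call without cochlea array 1, 3 or 4 or utricle array 2 or 3 (adjusted p 0.0548 to 0.0723). The dark cell marker SLC12A2 was called toward the utricle with the replicate block (adjusted p = 0.0438). The fibroblast marker COL3A1 differed by 1.24 toward the utricle (adjusted p = 0.0525). It was called without cochlea array 4 or utricle array 4 (adjusted p = 0.00844 and 0.0442) and with the array-name prefix as a block (0.0326), but not with the replicate block (0.0644). OCA2, DCT and the leukocyte marker LAPTM5 passed the signal rule through the utricle only, and NEFM through the cochlea only. A difference was thus built into their passing. The part of these other cells in the results below was not tested. CALB1, at 15.33 to 15.42 on the cochlea arrays, read 2.49 and 2.50 on utricle arrays 1 and 4 but 7.47 and 6.89 on utricle arrays 2 and 3, and the main counts are also given without those 2 arrays.

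The study set the epithelium of a balance organ against that of the hearing organ. Of the 65 enzyme genes, 21 were higher in the utricle, 20 were higher in the cochlea and 24 were not called in either direction (limma, adjusted p under 0.05 over all 16223 probe sets tested). The background was high. Among all named genes tested, 26.6% were called toward the utricle and 26.7% toward the cochlea, 53.3% in all, beside 63.1% of the enzyme genes. With a fitted difference of at least 2-fold, 9 lay toward the utricle and 5 toward the cochlea, 21.5% of the enzyme genes beside 21.1% of all genes tested (11.1% toward the utricle and 9.98% toward the cochlea). Among these enzyme genes, AKR1B10 and GPX7 passed the signal rule through the utricle only, and DHRS12, GSTA1_CHICK and GSTT1 through the cochlea only. A difference was built into their passing. Such genes also stand among all genes tested, where they were not counted. With values under 4 raised to 4, the 2-fold counts of the enzyme genes were 8 and 4, as GPX7 and GSTA1_CHICK then differed by 1.98-fold and 1.90-fold. The median difference, utricle minus cochlea on the log2 scale, was 0.03 for the enzyme genes and 0.0 for all genes, and the median size of a difference was 0.50 and 0.40. The tissues did not overlap for 39 enzyme genes, or 60%, beside 51.1% of all genes. Without the 2 utricle arrays with CALB1 above 4, an alternative chosen after the data were seen, 17 were called toward the utricle and 14 toward the cochlea, 8 and 7 of them by 2-fold or more. Over all 16223 probe sets the same fit called 3665 and 3366, beside 4286 and 4066 on all 8 arrays. Within the 6 arrays whose names share the larger of 2 prefixes the counts were 19 and 17, and 3569 and 3530 over all probe sets. The other prefix holds 1 array of each tissue and allows no test. In RNA of a whole epithelium, fewer cells of a type and less RNA per cell cannot be told apart.

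**Figure D1:**
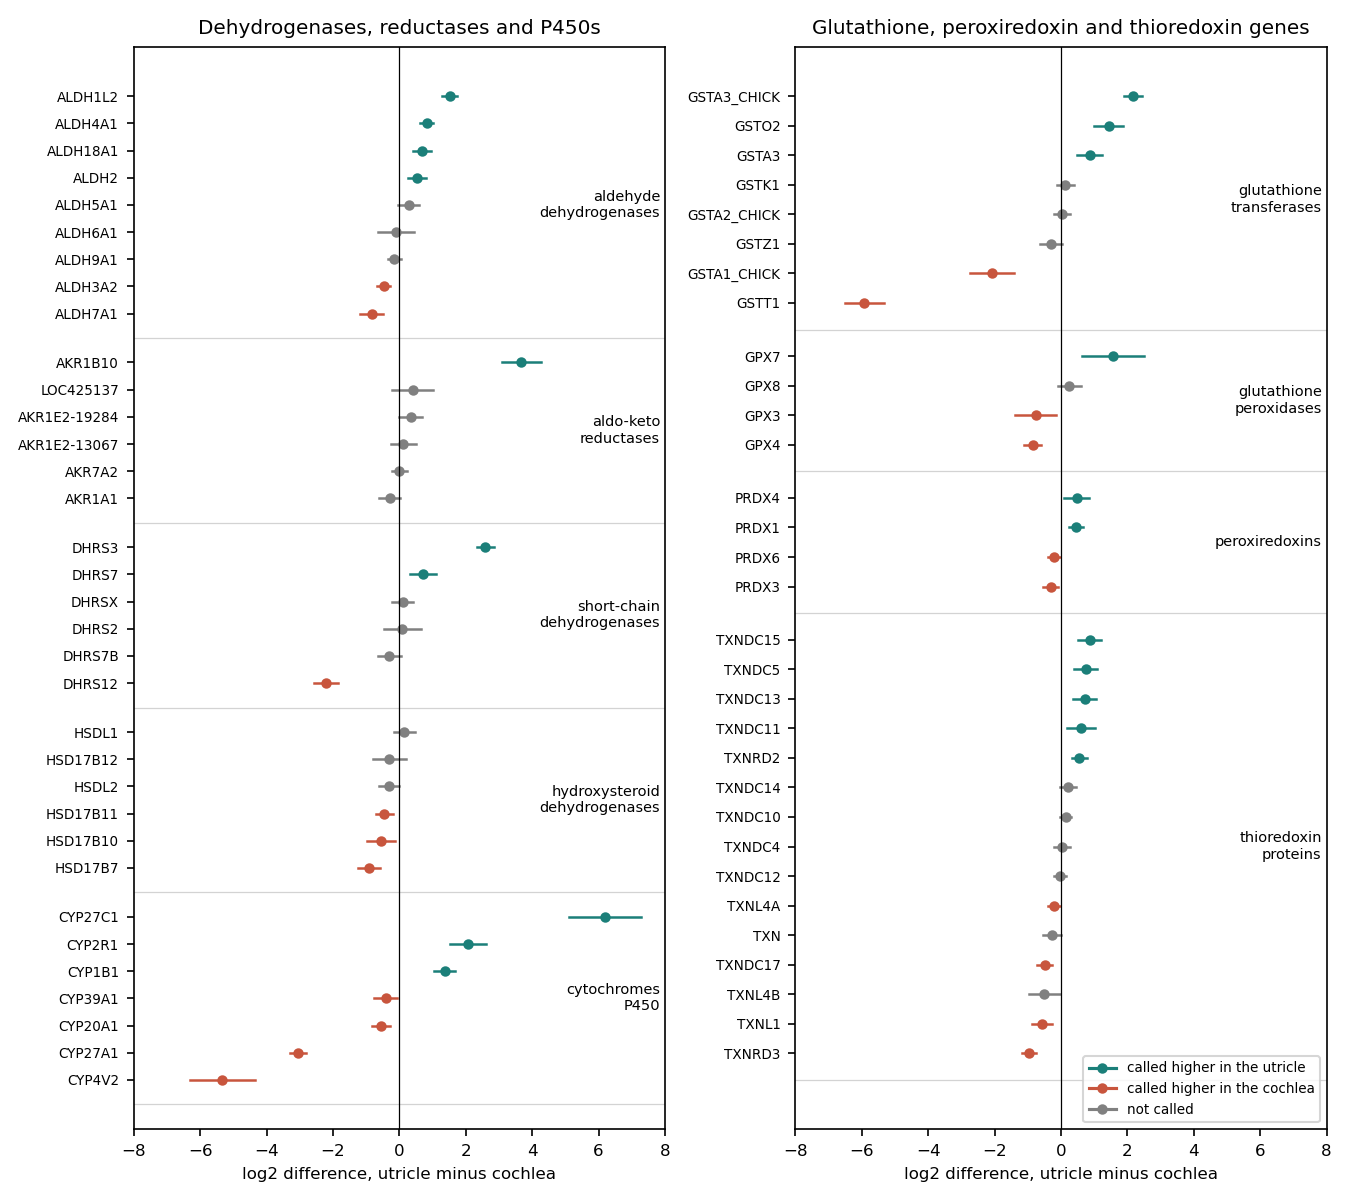
Log2 difference, utricle minus cochlea, of each of the 65 enzyme genes tested (points) with its 95% confidence interval from the limma fit (lines), grouped by family and coloured by call. Most points lie within 1 log2 unit of 0, while CYP27C1 and AKR1B10 stand far toward the utricle and CYP4V2 and GSTT1 far toward the cochlea.

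The families split in different ways. All 7 cytochromes P450 tested were called, 3 toward the utricle and 4 toward the cochlea, and 5 of them by 2-fold or more. Of all genes tested, 53.3% were called and 21.1% were called by 2-fold or more, beside 100% and 71.4% of these P450s. The 6 hydroxysteroid dehydrogenases had 3 calls, a share of 50%, all toward the cochlea. Of the 6 aldo-keto reductases, 1 was called, a share of 16.7%, toward the utricle. The 15 thioredoxin proteins had 5 calls toward the utricle and 4 toward the cochlea, a share of 60%, all under 2-fold. These counts describe the families, whose difference from one another was not tested.

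**Figure D2:**
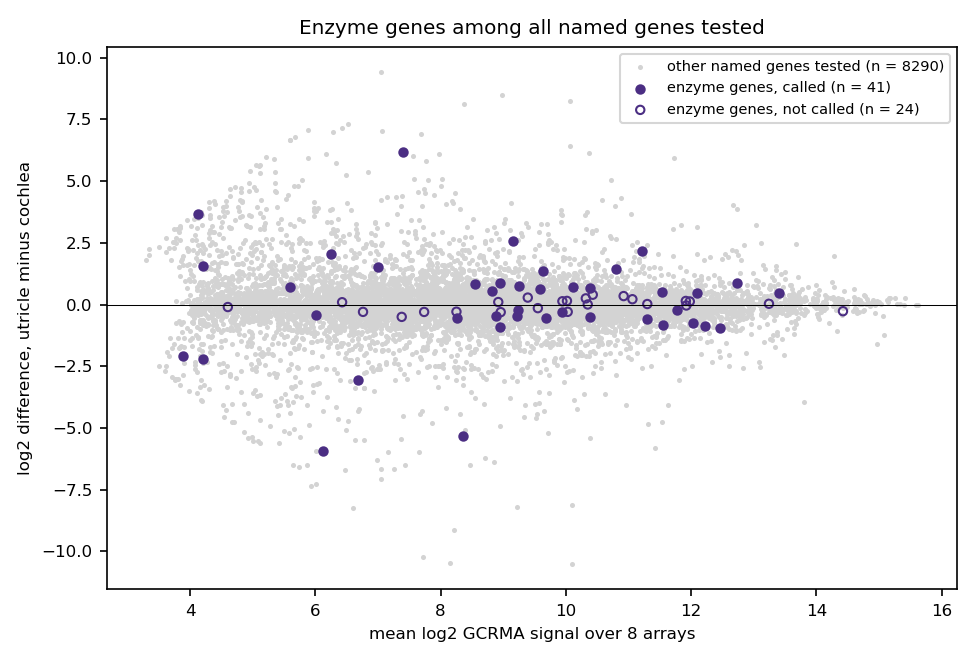
Log2 difference, utricle minus cochlea, against the mean log2 signal over 8 arrays for every named gene tested (grey points), with the 41 called enzyme genes as filled circles and the 24 uncalled ones as open circles. The enzyme genes spread over most of the range of signals of the other genes, and a few lie among the large differences on either side.

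Cytochromes P450 are haem enzymes that insert oxygen into lipids, sterols, retinoids and drugs. CYP27C1 had the largest difference toward the utricle among the enzyme genes. This enzyme desaturates retinol in zebrafish, giving the long-wavelength vitamin A of the eye. Its log2 signals were 10.39, 10.90, 10.32 and 10.37 on utricle arrays 1 to 4, and 3.36, 5.72, 3.56 and 4.56 on cochlea arrays 1 to 4. Every utricle array was far above every cochlea array, and 2 cochlea arrays were under 4. CYP27C1 was higher in the utricle by at least 60.9-fold (10.50 ± 0.27 against 4.30 ± 1.08, mean ± SD of the log2 signal over n = 4 arrays, as in later sentences, limma adjusted p = 9.73e-06). A second tested probe set of the gene lay at 6.45 in the utricle and 2.22 in the cochlea. Folds written "at least" come from values under 4 raised to 4, because such signals were close to the background.

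CYP2R1, a hydroxylase of vitamin D, read 7.48, 7.16, 7.20 and 7.30 in the utricle and 5.22, 5.60, 5.59 and 4.47 in the cochlea. The tissues did not overlap, and the lowest cochlea array stood apart from the others of its tissue. It was higher in the utricle by 4.19-fold, a log2 difference of 2.07 (95% interval 1.52 to 2.62, adjusted p = 1.28e-04). CYP1B1, which oxidises steroids, retinoids and foreign aromatic compounds, read 10.09, 10.20, 10.48 and 10.50 in the utricle and 9.26, 8.91, 8.84 and 8.79 in the cochlea. All utricle arrays lay above all cochlea arrays, by 2.58-fold on average (difference 1.37, interval 1.04 to 1.69, adjusted p = 5.94e-05).

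Toward the cochlea, CYP4V2, a hydroxylase of fatty acids, read 4.97, 6.88, 4.95 and 5.95 in the utricle and 10.63, 10.85, 11.04 and 11.57 in the cochlea. The utricle arrays varied by almost 2 log2 units, and none came near the cochlea arrays. CYP4V2 was higher in the cochlea by 40.3-fold (5.69 ± 0.92 against 11.02 ± 0.40, adjusted p = 1.30e-05). Its other probe set, under the signal rule, lay at 2.23 in the utricle and 2.5 in the cochlea. CYP27A1, the mitochondrial sterol hydroxylase that starts one route of bile acid synthesis, read 5.13, 5.08, 5.35 and 5.02 in the utricle and 8.34, 8.05, 8.16 and 8.24 in the cochlea. Arrays of a tissue lay close together and the tissues were well apart. In the authors' deposited table, 0 of the 4 utricle arrays had a present call for it, so its utricle level is only a bound. CYP27A1 was higher in the cochlea by at least 8.31-fold (5.14 ± 0.14 against 8.20 ± 0.12, adjusted p = 8.09e-08). The other probe set of CYP27A1 lay at 2.22 in both tissues.

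CYP20A1, a P450 with no settled substrate and the family's brightest probe set, read 9.35, 9.25, 9.50 and 9.54 in the utricle and 9.84, 9.77, 10.12 and 10.10 in the cochlea. The tissues did not overlap but lay within 1 log2 unit, and CYP20A1 was higher in the cochlea by 1.46-fold (adjusted p = 0.00411). CYP39A1, an oxysterol hydroxylase, differed by -0.41 (interval -0.75 to -0.07, adjusted p = 0.0461), with overlapping tissues. Its call was lost without any single one of cochlea arrays 2, 3 and 4 or utricle arrays 1, 2 and 4 (adjusted p 0.0844 to 0.112). The 8 P450s under the signal rule, with no array above 4, included CYP26B1 and CYP26C1, which break down retinoic acid, and the drug-metabolising CYP1A2, CYP2H1 and CYP3A4.

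Of 13 electron donors and other partners of P450s listed, 8 were tested, 2 were called toward the utricle and 4 toward the cochlea. The share called was 75% beside 53.3% of all genes, with a median difference of -0.32 beside 0.0 over all genes. PGRMC1 and PGRMC2 are counted here as partners and not as electron donors, and gave 1 call in each direction. PGRMC2, a haem-binding membrane protein, was higher in the utricle by 1.64-fold (adjusted p = 0.00244), and the reductase CYB5R4 by 1.76-fold (adjusted p = 0.015). Cytochrome b5 (CYB5A) was higher in the cochlea by 1.38-fold (adjusted p = 0.00779), and FDX1, the ferredoxin that feeds mitochondrial P450s such as CYP27A1, by 1.30-fold (adjusted p = 0.00788). CYB5R4 and FDX1 were not called on the arrays of the larger name prefix alone (adjusted p = 0.0537 and 0.0526), nor CYB5R4 with no signal rule (adjusted p = 0.075). The other calls toward the cochlea, CYB5R3 and PGRMC1, were lost with no signal rule (adjusted p = 0.102 and 0.0672) and without the 2 utricle arrays with CALB1 above 4 (0.0942 and 0.0827). That of CYB5R3 was also lost without cochlea array 1, 3 or 4 or utricle array 2 or 4 (adjusted p 0.0566 to 0.0697). With the replicate block POR, the reductase that feeds microsomal P450s, was called toward the cochlea too (adjusted p = 0.0419).

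**Figure D3:**
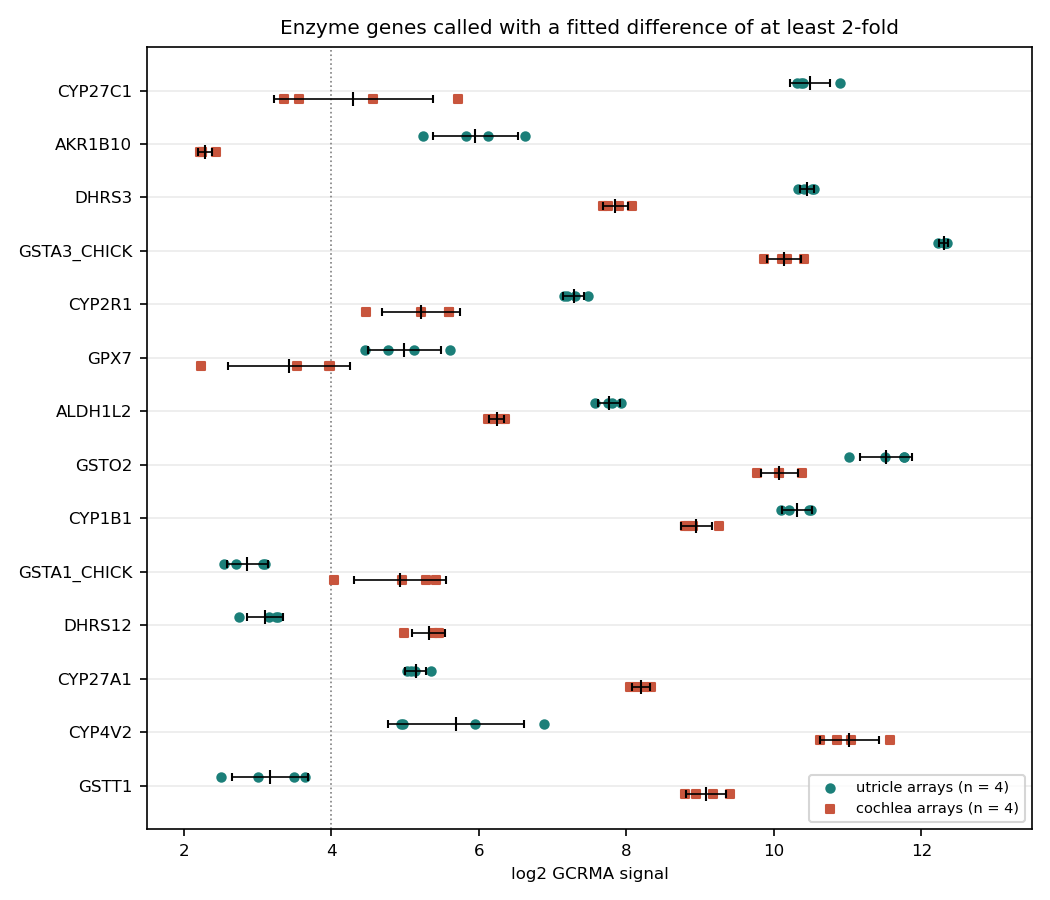
Log2 GCRMA signal of the 14 enzyme genes called with a fitted difference of at least 2-fold (12 with values under 4 raised to 4), 1 point per array (circles utricle, squares cochlea), with the mean and SD of each tissue in black and a dotted line at the signal of 4. The tissues overlap for none of the 14, and 6 genes have arrays of the dimmer tissue to the left of the line. The 14 were chosen by their difference, so the lack of overlap is no separate result.

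Among the short-chain dehydrogenases, DHRS3 reduces retinal back to retinol and so limits the making of retinoic acid. Its signals were 10.54, 10.41, 10.52 and 10.33 in the utricle and 7.90, 7.69, 7.75 and 8.07 in the cochlea. The arrays of each tissue were tightly grouped, and DHRS3 was higher in the utricle by 6.04-fold (10.45 ± 0.10 against 7.86 ± 0.17, adjusted p = 2.37e-07). DHRS12 lay the other way, at 3.27, 2.75, 3.15 and 3.25 in the utricle and 5.45, 4.98, 5.38 and 5.46 in the cochlea. No utricle array was above 4, so the gene passed the signal rule through the cochlea only. Its cochlea level was at least 2.49-fold higher (adjusted p = 5.51e-06). The other probe set of DHRS12 lay at 2.38 in the utricle and 2.39 in the cochlea.

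DHRS7, the brightest probe set of this family, read 10.23, 10.54, 10.72 and 10.40 in the utricle and 9.60, 9.49, 9.76 and 10.17 in the cochlea. The highest cochlea array came close to the lowest utricle array without crossing it. It was higher in the utricle by 1.64-fold (difference 0.71, interval 0.33 to 1.09, adjusted p = 0.00687), and was not called without the 2 utricle arrays with CALB1 above 4 (adjusted p = 0.068). DHRSX, DHRS2 and DHRS7B were not called, at differences of 0.10, 0.09 and -0.30. With the replicate number as a block DHRS7B was called (adjusted p = 0.0482), and likewise without cochlea array 2 (adjusted p = 0.0494).

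AKR1B10, an aldo-keto reductase that reduces retinal and other aldehydes, read 5.82, 6.62, 6.13 and 5.24 in the utricle and 2.25, 2.25, 2.22 and 2.43 in the cochlea. All 4 cochlea arrays were at the background, and the gene passed the signal rule through the utricle only. AKR1B10 was higher in the utricle by at least 3.87-fold (5.95 ± 0.58 against 2.29 ± 0.10, adjusted p = 5.45e-06). The brightest aldo-keto reductase probe set was that of 1 of the Ensembl genes the sheet names AKR1E2 (ENSGALG00000013067), written AKR1E2-13067 here. AKR1E2-13067 read 11.87, 12.48, 11.91 and 11.90 in the utricle and 11.73, 12.20, 11.87 and 11.87 in the cochlea. Array 2 was the highest in both tissues, the tissues overlapped, and the difference was 0.12 (interval -0.25 to 0.50, adjusted p = 0.551).

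The other aldo-keto reductases were not called. LOC425137 lay at 10.63 ± 0.58 in the utricle and 10.23 ± 0.21 in the cochlea, with utricle array 4 at 9.76 below all cochlea arrays. Without that array the difference was 0.69 with an adjusted p of 0.00381. AKR1E2-19284 differed by 0.34 (adjusted p = 0.0883) and AKR1A1, an aldehyde reductase, by -0.29 (adjusted p = 0.0996), while a second tested probe set of AKR1A1 differed by -0.41 (adjusted p = 0.0266). AKR7A2, which reduces succinic semialdehyde, had a difference of 0.0 (interval -0.22 to 0.23). In the RefSeq annotation, 3 genes lie between LOC425137 and AKR1B10, and AKR1A1 and the peroxiredoxin PRDX1 are next to each other.

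The enzymes that act on retinol and retinal were also read beside the other genes of that path. Of 18 genes listed, 5 were tested under their listed names, with 2 calls toward the utricle and 1 toward the cochlea. The share called was 60%, beside 53.3% of all genes, with a median difference of 0.12. These values leave out BCO1 and BCO2 of the list, which the sheet names BCDO1 and BCDO2. Both were tested and called, BCDO1 toward the cochlea (difference -1.10) and BCDO2 toward the utricle (difference 2.78). STRA6, the membrane receptor that takes up retinol from its carrier, read 10.00, 10.49, 10.98 and 10.49 in the utricle and 5.63, 5.68, 6.21 and 6.37 in the cochlea. The tissues were far apart, and STRA6 was higher in the utricle by 22.9-fold (adjusted p = 1.10e-06). RDH14, a retinol dehydrogenase, was higher in the utricle by 1.62-fold (adjusted p = 9.69e-04). RPE65, the isomerase of the visual cycle in the eye, read 2.22, 2.36, 2.22 and 2.36 in the utricle and 7.39, 7.06, 7.17 and 6.53 in the cochlea. All utricle signals of RPE65 were close to the background, although 1 of those arrays had a present call in the authors' table. The cochlea level of RPE65 was higher by at least 8.22-fold (adjusted p = 1.15e-07). RPE65 passed the signal rule through the cochlea only, so a difference was built into its passing. OCA2 and DCT, of the melanocyte list, had higher means in the utricle, as did CYP27C1, STRA6, DHRS3 and AKR1B10. OCA2 and DCT lay at 6.99 ± 0.31 and 4.59 ± 0.29 in the utricle against 2.29 ± 0.13 and 2.79 ± 0.29 in the cochlea. TYRP1 of that list, under the signal rule, lay at 4.10 ± 1.39 against 3.04 ± 0.68. OCA2 and DCT passed the signal rule through the utricle only. Whether melanocytes had a part in these differences, or whether the genes varied together among the arrays of a tissue, was not tested.

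**Figure D4:**
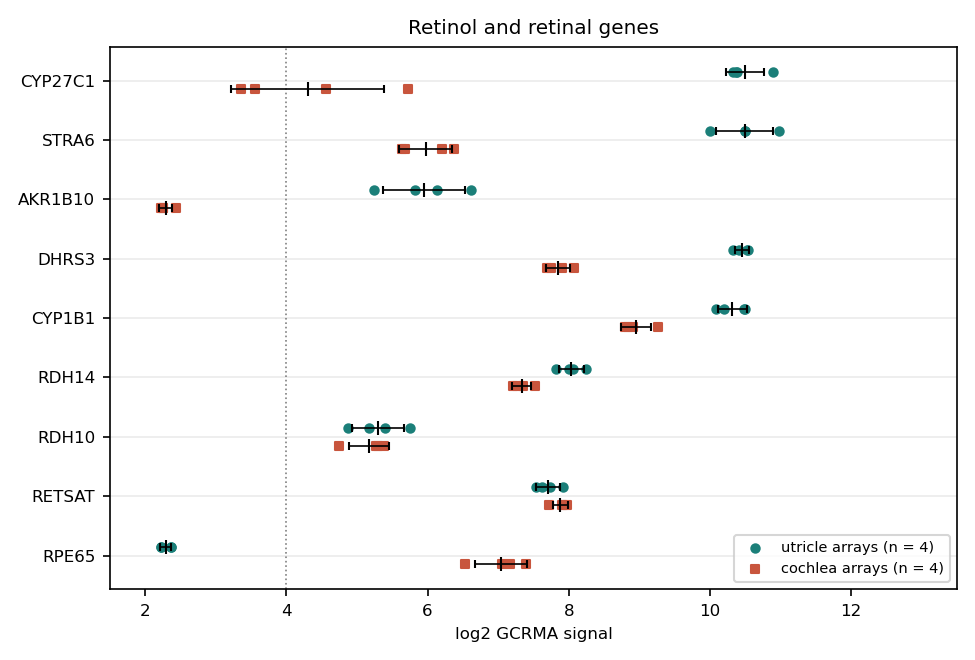
Log2 GCRMA signal of enzyme genes that act on retinol or retinal (CYP27C1, AKR1B10, DHRS3, CYP1B1) and of the 5 tested genes of the retinol and retinal list, 1 point per array (circles utricle, squares cochlea), with the mean and SD of each tissue and a dotted line at the signal of 4. CYP27C1, STRA6, AKR1B10 and DHRS3 lie to the right in the utricle, RPE65 lies to the right in the cochlea, and the arrays of RDH10 and RETSAT mix. The enzyme genes drawn were all called toward the utricle by 2-fold or more. AL1A2, an enzyme that makes retinoic acid and was not called, is not drawn. BCDO1 and BCDO2, called in opposite directions under names outside the list, are not drawn either.

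Aldehyde dehydrogenases oxidise aldehydes to acids, many of them at a fixed step of amino acid or folate metabolism. Of the 9 tested, 4 were called toward the utricle, 2 toward the cochlea and 3 not at all, with a median difference of 0.28. The share called was 66.7%, beside 53.3% of all genes. ALDH1L2, the mitochondrial formyl-tetrahydrofolate dehydrogenase, read 7.75, 7.58, 7.80 and 7.93 in the utricle and 6.20, 6.12, 6.35 and 6.30 in the cochlea. The tissues stood more than 1 log2 unit apart, and ALDH1L2 was higher in the utricle by 2.87-fold (difference 1.52, interval 1.29 to 1.75, adjusted p = 3.92e-06). Its probe set is among those that can match several transcripts, and the gene's other probe sets lay at 2.22 in both tissues. Both enzymes of proline turnover in the family lay toward the utricle. ALDH18A1, which makes proline from glutamate, was higher there by 1.61-fold (adjusted p = 0.00134) and ALDH4A1, which acts in proline breakdown, by 1.78-fold (difference 0.83, adjusted p = 6.24e-05). A second tested probe set of ALDH4A1 differed by 1.71, and the mean of its probe sets by 1.27, over 2-fold. ALDH2, the mitochondrial enzyme that clears acetaldehyde and products of lipid peroxidation, was higher in the utricle by 1.44-fold (11.79 ± 0.17 against 11.27 ± 0.17, adjusted p = 0.00671).

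ALDH7A1, an enzyme of lysine breakdown and the brightest probe set of the family, read 11.21, 11.23, 10.81 and 11.33 in the utricle and 12.02, 11.92, 11.71 and 12.24 in the cochlea. Array 3 was the lowest and array 4 the highest in both tissues, and the tissues did not overlap. ALDH7A1 was higher in the cochlea by 1.77-fold (adjusted p = 0.00177). ALDH3A2, which oxidises fatty aldehydes, was higher in the cochlea by 1.39-fold (adjusted p = 0.00213). ALDH5A1, which closes GABA breakdown, differed by 0.28 (adjusted p = 0.124), but was called with the replicate block (adjusted p = 0.0315) and when cochlea array 2 was left out (adjusted p = 0.0302). ALDH9A1 and ALDH6A1, the latter an enzyme of valine breakdown, were not called, at -0.15 and -0.10. ALDH3B1 and ALDH8A1 were under the signal rule with no array above 4, as were the alcohol dehydrogenases ADH1 and ADH5. The probe set named ALDH1A2 also had no array above 4, but the sheet lists this enzyme, which makes retinoic acid, a second time as AL1A2, a name outside the rule. AL1A2 passed the signal rule, with overlapping tissues at 5.76 ± 0.70 and 5.42 ± 0.95, and was not called (difference 0.34, adjusted p = 0.602).

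The hydroxysteroid dehydrogenases take part in steroid, cholesterol and fatty acid metabolism. HSD17B7, an enzyme of cholesterol synthesis, was higher in the cochlea by 1.88-fold (8.50 ± 0.30 against 9.41 ± 0.09, adjusted p = 8.99e-04), and its second tested probe set differed by -0.74. HSD17B11 was higher in the cochlea by 1.36-fold (adjusted p = 0.00755), but not called without the 2 utricle arrays with CALB1 above 4 (adjusted p = 0.0626). HSD17B10, a mitochondrial enzyme, was 1.46-fold higher there (adjusted p = 0.0356), with overlapping tissues. That call was lost without utricle array 1 or 2 or cochlea array 2, 3 or 4 (adjusted p 0.0642 to 0.0905), and without the 2 utricle arrays with CALB1 above 4 (adjusted p = 0.0599).

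HSDL1, the family's brightest probe set, read 10.05, 9.72, 10.33 and 10.27 in the utricle and 9.91, 9.92, 9.90 and 10.05 in the cochlea. Its tissues overlapped, and the difference was 0.15 (interval -0.17 to 0.46, adjusted p = 0.403). HSD17B12, which elongates fatty acids, was not called at -0.30. HSDL2 differed by -0.31 without overlap of the tissues (adjusted p = 0.0703), and was called with the replicate block (adjusted p = 0.029) and without utricle array 4 (adjusted p = 0.048). The genes that activate or inactivate glucocorticoids, HSD11B1 and HSD11B2, had no array above 4.

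Genes of cholesterol synthesis other than HSD17B7 gave 1 call toward the utricle and 4 toward the cochlea among 11 tested of 27 listed, 45.5% beside 53.3% of all genes, with a median difference of -0.27. MVK, mevalonate kinase, was higher in the cochlea by 1.55-fold (adjusted p = 0.00243), and LSS, which closes the sterol rings, by 1.65-fold (adjusted p = 0.00517). LBR, a sterol reductase of the nuclear membrane, was higher in the utricle by 1.61-fold (adjusted p = 0.0422), a call that was lost without any single array other than utricle array 1 (adjusted p 0.0519 to 0.103), and without the 2 utricle arrays with CALB1 above 4 (adjusted p = 0.24). NSDHL, a sterol dehydrogenase called toward the cochlea (adjusted p = 0.0312), lost its call without cochlea array 2, 3 or 4 or utricle array 2 or 4 (0.0615 to 0.0798) and with no signal rule (0.109), and SQLE was called toward the utricle with the replicate block (0.0424). Of 17 genes of steroid synthesis and nuclear receptors, 7 were tested, 1 called toward the utricle and 3 toward the cochlea, 57.1% beside 53.3% of all genes, although the median difference was positive at 0.34. With the replicate block STARD3 and SRD5A3 were also called toward the utricle (adjusted p = 0.0321 and 0.0411), making 3 in each direction. The sulfotransferase SULT1E1, which adds sulfate to estrogens, and the sulfatase STS, which removes it from steroids, were higher in the cochlea by 3.02-fold and 3.07-fold (adjusted p = 7.81e-06 and 9.75e-05). TSPO, a mitochondrial membrane protein, was higher in the utricle by 1.58-fold (adjusted p = 0.00529), but not called without the 2 utricle arrays with CALB1 above 4 (adjusted p = 0.053). Among xenobiotic sensors only TIPARP and RXRA were tested of 14 listed. TIPARP, a target of the aryl hydrocarbon receptor, was higher in the utricle by 1.49-fold (adjusted p = 0.025), lost without cochlea array 1 or 2 or utricle array 3 (adjusted p 0.0544 to 0.0648) and without the 2 utricle arrays with CALB1 above 4 (adjusted p = 0.13). The retinoid X receptor RXRA was higher in the cochlea by at least 3.04-fold (adjusted p = 1.33e-04). Only 1 of the 4 utricle arrays had a present call for RXRA, so its utricle level is only a bound.

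Glutathione transferases join glutathione to reactive compounds. Of the 8 tested, 3 were called toward the utricle, 2 toward the cochlea and 3 not at all. The share called was 62.5%, beside 53.3% of all genes. GSTT1, of the theta class, read 3.64, 3.50, 3.00 and 2.51 in the utricle and 8.79, 8.94, 9.18 and 9.41 in the cochlea. No utricle array was above 4, and GSTT1 was higher in the cochlea by at least 33.8-fold (3.16 ± 0.51 against 9.08 ± 0.27, adjusted p = 3.14e-07). GSTO2, of the omega class, which recycles vitamin C, read 11.77, 11.02, 11.51 and 11.76 in the utricle and 10.38, 9.77, 10.07 and 10.07 in the cochlea. Array 2 was the lowest in both tissues, the tissues did not overlap, and GSTO2 was higher in the utricle by 2.72-fold (adjusted p = 2.81e-04).

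The alpha class transferases, which also reduce lipid peroxides, did not move together. GSTA3_CHICK read 12.33, 12.31, 12.35 and 12.22 in the utricle and 10.11, 10.18, 10.41 and 9.86 in the cochlea. It had the tightest utricle arrays of the transferases and was higher in the utricle by 4.48-fold (12.30 ± 0.06 against 10.14 ± 0.23, adjusted p = 1.37e-06). GSTA3, another Ensembl gene in the sheet, was higher in the utricle by 1.82-fold (13.16 ± 0.13 against 12.29 ± 0.33, adjusted p = 0.00219). GSTA2_CHICK, the brightest transferase probe set, read 13.31, 13.11, 13.22 and 13.39 in the utricle and 13.32, 13.38, 13.16 and 13.05 in the cochlea. Its arrays mixed and the difference was 0.03 (interval -0.21 to 0.27). GSTA1_CHICK read 2.71, 3.10, 3.08 and 2.54 in the utricle and 5.29, 4.04, 5.42 and 4.96 in the cochlea. It passed the signal rule through the cochlea only and was at least 1.90-fold higher there (difference -2.07, interval -2.74 to -1.40, adjusted p = 4.11e-04). The probe sets of GSTA1_CHICK and GSTA2_CHICK are among those that can match several transcripts, and which of the related alpha class genes they measured is uncertain.

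GSTK1, of the kappa class, and GSTZ1, an enzyme of tyrosine breakdown, were not called, at 0.13 and -0.30. GSTZ1 was called with the replicate block (adjusted p = 0.0498) and without utricle array 3 (adjusted p = 0.0431). GSTCD was just outside the signal rule, with 2 arrays above 4, at 3.91 ± 0.15 in the utricle and 3.53 ± 0.47 in the cochlea. Just inside it were GPX7, GSTA1_CHICK and DHRS12, whose values are given here, and ALDH6A1, with all 8 arrays between 4.28 and 5.44. Of the 65 genes, 5 passed through 1 tissue alone, namely AKR1B10 and GPX7 through the utricle and DHRS12, GSTA1_CHICK and GSTT1 through the cochlea, so a difference was built into their passing.

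Glutathione peroxidases use glutathione or protein thiols to reduce peroxides. GPX7, of the endoplasmic reticulum, read 4.77, 4.45, 5.61 and 5.12 in the utricle and 3.54, 2.23, 3.98 and 3.97 in the cochlea. All cochlea arrays were under 4, and 2 of them only just. GPX7 was higher in the utricle by at least 1.98-fold (difference 1.56, interval 0.62 to 2.50, adjusted p = 0.0121), and was not called without the 2 utricle arrays with CALB1 above 4 (adjusted p = 0.0538) or with no signal rule (adjusted p = 0.072). GPX4, which reduces lipid hydroperoxides in membranes and guards cells against ferroptosis, read 11.70, 12.04, 11.87 and 11.55 in the utricle and 12.58, 12.57, 12.72 and 12.71 in the cochlea. The cochlea arrays were tightly grouped above all utricle arrays, and GPX4 was higher in the cochlea by 1.81-fold (adjusted p = 3.30e-04).

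GPX3, the secreted peroxidase, was higher in the cochlea by 1.70-fold (11.64 ± 0.46 against 12.40 ± 0.43, adjusted p = 0.0432). The tissues overlapped, and the call was lost without cochlea array 2, 3 or 4 or utricle array 1, 2 or 4 (adjusted p 0.0658 to 0.108), although array 1 was the lowest in both tissues and the replicate block lowered the adjusted p to 0.00155. GPX8 was not called, at 0.25.

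Peroxiredoxins reduce peroxides, most of them with thioredoxin as their partner. All 4 tested were called, beside 53.3% of all genes, each by less than 1.5-fold. PRDX1, of the cytosol and the family's brightest probe set, read 13.71, 13.68, 13.71 and 13.42 in the utricle and 13.25, 13.08, 13.25 and 13.11 in the cochlea. The tissues did not overlap and PRDX1 was higher in the utricle by 1.37-fold (adjusted p = 0.00394). PRDX4, of the endoplasmic reticulum, was higher in the utricle by 1.38-fold (adjusted p = 0.0446), while the mitochondrial PRDX3 was higher in the cochlea by 1.24-fold and PRDX6 by 1.16-fold (adjusted p = 0.029 and 0.0497).

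The last 3 calls depended on single arrays. PRDX4 lost its call without utricle array 2, 3 or 4 or cochlea array 1, 2 or 3 (adjusted p 0.0694 to 0.11), PRDX3 without utricle array 1 or 3 or cochlea array 2 or 3 (0.064 to 0.0743), and PRDX6 without utricle array 1, 2 or 4 or cochlea array 1, 2 or 3 (0.0834 to 0.116). Without the 2 utricle arrays with CALB1 above 4, the adjusted p of PRDX4 was 0.223, that of PRDX3 0.0955 and that of PRDX6 0.104. The second probe set of PRDX3 differed by -0.65 with an adjusted p of 1.79e-04, and that of PRDX6 by -0.32 with an adjusted p of 0.0219.

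Thioredoxin (TXN) passes electrons from NADPH, through thioredoxin reductases, to peroxiredoxins and protein disulfides. TXN read 14.49, 14.09, 14.18 and 14.41 in the utricle and 14.75, 14.39, 14.50 and 14.60 in the cochlea. In both tissues array 1 was the highest and array 2 the lowest, and the tissues overlapped. The difference was -0.27 (interval -0.55 to 0.01, adjusted p = 0.0952), and with the replicate block TXN was called higher in the cochlea (adjusted p = 0.021). The thioredoxin reductases lay on opposite sides. TXNRD2, of the mitochondria, was higher in the utricle by 1.47-fold (9.10 ± 0.13 against 8.55 ± 0.12, adjusted p = 0.00173), and TXNRD3 was higher in the cochlea by 1.94-fold (11.98 ± 0.10 against 12.94 ± 0.13, adjusted p = 5.25e-05). A second tested probe set of TXNRD3 differed by -1.34. TXN2, the mitochondrial thioredoxin, was under the signal rule.

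Several thioredoxin-domain proteins sit in the endoplasmic reticulum and help form disulfide bonds in new proteins. Of 9 TXNDC genes tested, 4 were called toward the utricle and 1, TXNDC17, toward the cochlea, 55.6% beside 53.3% of all genes. TXNDC15 was higher in the utricle by 1.82-fold (adjusted p = 0.00176), TXNDC5, a protein disulfide isomerase, by 1.68-fold (adjusted p = 0.0037) and TXNDC13, also known as TMX4, by 1.65-fold (adjusted p = 0.00445). A second probe set of TXNDC5, under the signal rule, lay at 2.22 in the utricle and 3.99 in the cochlea. TXNDC11 was higher in the utricle by 1.53-fold (adjusted p = 0.0217), and its 3 tested probe sets differed by 0.54 to 0.61. That call was lost without cochlea array 1, 3 or 4 (adjusted p 0.0524 to 0.0566), and without the 2 utricle arrays with CALB1 above 4 (adjusted p = 0.0532). TXNDC4, TXNDC10, TXNDC12 and TXNDC14, also known as ERP44, TMX3, ERP18 and TMX2, were not called, at differences between -0.04 and 0.22. TXNDC14 was called with the replicate block (adjusted p = 0.0406).

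The TXNL genes, and TXNDC17 of the TXNDC count, are of the cytosol and nucleus. Whether the direction of a call goes with the place in the cell was not tested. TXNL1, which is bound to the proteasome, was higher in the cochlea by 1.49-fold (adjusted p = 0.00587), but not called without the 2 utricle arrays with CALB1 above 4 (adjusted p = 0.0616). TXNDC17 was 1.41-fold higher there (10.14 ± 0.16 against 10.63 ± 0.06, adjusted p = 0.00312). TXNL4A, a spliceosome protein, was 1.16-fold higher (adjusted p = 0.0485). That call was lost with the replicate block (adjusted p = 0.0533), without any single one of the 8 arrays (adjusted p 0.0503 to 0.109) and without the 2 utricle arrays with CALB1 above 4 (adjusted p = 0.109). Its relative TXNL4B differed by -0.50 (adjusted p = 0.0647), and was called with the replicate block (adjusted p = 0.0107).

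The genes that supply glutathione and NADPH gave 2 calls toward the utricle and 5 toward the cochlea among 12 tested of 24 listed, 58.3% beside 53.3% of all genes, with a median difference of -0.09. With the replicate block TALDO1, also of the pentose phosphate path, was called toward the utricle (adjusted p = 0.012), and on the arrays of the larger name prefix GSR and LANCL1 lost their calls toward the cochlea (0.0609 and 0.0591). Both calls toward the utricle without the block were for enzymes that make NADPH, ME1 (malic enzyme, 1.83-fold, adjusted p = 1.18e-04) and PGD (of the pentose phosphate path, 1.39-fold, adjusted p = 0.00269). In the cochlea, the mitochondrial glutaredoxin GLRX2 was higher by 2.36-fold (adjusted p = 5.39e-05), and CHAC2, which breaks glutathione down, by 2.18-fold (adjusted p = 2.53e-04). The other antioxidant genes and those of the NRF2 pathway gave 3 calls toward the utricle and 7 toward the cochlea among 18 tested of 41 listed, 55.6% beside 53.3% of all genes, with a median difference of -0.34. Of those toward the cochlea, HMOX2 lost its call without cochlea array 1 or 3 or utricle array 2, 3 or 4 (adjusted p 0.0601 to 0.0865), without the 2 utricle arrays with CALB1 above 4 (0.217) and with no signal rule (0.08). MSRA lost its call without cochlea array 3 or utricle array 1 or 4 (adjusted p 0.053 to 0.0566), with no signal rule (0.0715) and on the larger name prefix (0.0798). With the replicate block HMOX1 and MGST3 were called toward the cochlea as well (adjusted p = 0.0439 and 0.0137). MGST2, a membrane-bound glutathione transferase, was higher in the utricle by 3.63-fold (adjusted p = 4.27e-05), and SEPP1, the selenium carrier selenoprotein P, by 4.71-fold (adjusted p = 5.64e-04). The quinone reductase NQO2 was higher in the cochlea by 3.32-fold (adjusted p = 9.21e-05), and PARK7, a redox-sensing protein, by 1.56-fold (adjusted p = 1.44e-04).

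Other readouts of the same arrays were set beside these values. In the authors' deposited table of present calls, 57 of the 63 enzyme genes listed had a present call on all 8 arrays. Some signals under 4 had a present call there. CYP27C1 had one on all 4 cochlea arrays, GPX7 on 2 cochlea arrays, and DHRS12 and GSTA1_CHICK on 2 utricle arrays each. AKR1B10 had none on the cochlea arrays and GSTT1 none on the utricle arrays. The authors' deposited lists of SAM calls held 27 of the 41 called enzyme genes, and all 27 stood in the list of the same tissue. Those lists were made from the same 8 arrays, so the shared direction adds no separate evidence. For 13 genes more than 1 probe set was tested, and in all 13 the probe sets differed in the same direction. Probe sets under the signal rule are not part of that count. The median SD over 4 arrays was 0.17 in the utricle and 0.19 in the cochlea.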

How the data were processed

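RNA of 4 utricle and 4 cochlea samples, each of 10 to 20 pooled epithelia, was hybridised to Affymetrix chicken arrays, 1 per sample. The authors deposited log2 signals made with GCRMA, per the submitters' processing notes, and per the file headers these were background corrected by GC content, quantile normalised and summarised by median polish, steps that draw arrays together and compress low signals. No version was stated. The deposited workbook gives the authors' SAM fold as a ratio, and the number of arrays with a MAS 5.0 present call as a score from 0 to 4. A further 136 columns of per-array values were not used.

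Of 38535 probe sets, 96 controls were left out and the 16223 that exceeded a log2 signal of 4 in at least 4 of 8 arrays were tested with limma 3.58.1 in R 4.3.3 (lmFit, eBayes, two-sided, Benjamini-Hochberg adjustment over all tested). In simulated data the fit recovered 90 of 100 probe sets raised by 1 log2 unit and 95 of 100 raised by 2, with 3 false calls. The simulated noise was independent between arrays, so that check does not cover deviations shared by same-numbered arrays. A call means an adjusted p under 0.05, and intervals are 95%. Tables and plots used Python 3.11.15, pandas 2.3.3 and matplotlib 3.10.9. Names came from the workbook, and 55 of the 65 enzyme genes matched a symbol of the RefSeq table (assembly GRCg7b), used for names and neighbours only.

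The members and lists were chosen with earlier results of these data known. Array by array values were given for members called by 2-fold or more and for the brightest probe set of each family, and other pathway genes were named by the 2 smallest adjusted p in each direction of a list. One gene of the retinol list is not reported here. Exceptions, chosen after their values were seen, were GSTCD, CALB1, PCDH15 and other markers at background, and AL1A2, BCDO1, BCDO2 and CO1A2. The markers OCA2, DCT, TYRP1, LAPTM5, CD3E, CSF1R, CA2, HBG2 and HBM were exceptions too. Further exceptions were list genes whose call changes under an alternative, and the array values of STRA6 and RPE65.

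Deviations from the tissue means correlated at 0.552, 0.48, 0.404 and 0.144 between arrays with the same replicate number, each above 0.1. The main fit has no block, and values with the replicate number as a block are printed where they change a call. No label explains the numbering as a pairing. Most array names carry a number that an array of the other tissue shares, but no label ties these to the replicate numbers. The named arrays hold the same values as the numbered ones, but were not matched to them one by one. A block by the numbers in the names was therefore not fitted. The deviations of cochlea array 4 were closer to those of utricle array 3 (0.304). The array names carry 2 prefixes, 1 with 1 array of each tissue and 1 with 3 of each. Alternatives were other filters, a floor at 4, the replicate and prefix blocks, equal medians, other variance models, the mean of probe sets, adjustment over genes and leaving out arrays.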

Additional observations from a re-analysis of the deposited data

Results flagged for a closer look

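Among 130 groups of 4 arrays, 10 had 1 array set far apart from the other 3, where chance gives about 1 in 20. Utricle array 2 stood apart for 5 genes. It read 12.48 for AKR1E2-13067 (others 11.87 to 11.91), 10.90 for CYP27C1 (10.32 to 10.39) and 10.40 for TXNDC11 (9.67 to 9.78), all higher, and 8.96 for TXNDC15 (9.48 to 9.57) and 6.55 for TXNL4B (7.25 to 7.36), both lower. Utricle array 4 was low for LOC425137, at 9.76 (others 10.87 or more), and for PRDX1, at 13.42 (13.68 to 13.71). Cochlea array 4 was high for HSDL1, at 10.05 (9.90 to 9.92), and for AKR1B10, at 2.43 (2.22 to 2.25), where all 4 values are at background. Cochlea array 2 was low for DHRS12, at 4.98 (5.38 to 5.46).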

How the results depend on the processing

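Of the 41 called enzyme genes, 29 were called under each of the 20 alternatives in which they were tested, 12 lost their call under at least 1, and none changed direction. Leaving out 1 array at a time gave 19 to 21 calls toward the utricle and 14 to 19 toward the cochlea, and 9 to 10 and 5 to 6 with 2-fold. Over all probe sets tested the same fits gave 3765 to 4157 and 3571 to 3834 calls. With the replicate number as a block there were 23 and 24, with 7 calls gained and TXNL4A lost, and the block changed no other call of the 65. Over all probe sets tested this block gave 4855 and 4583 calls. The array-name prefix as a block gave 21 and 20 (4449 and 4223 over all probe sets). The 6 arrays of the larger prefix gave 19 and 17 (3569 and 3530 over all probe sets). A filter at 6, which tests 59 of the genes, left 3 rather than 5 genes higher in the cochlea by 2-fold. Adjusting over 1 probe set per gene gave 2270 and 2286 calls in place of 4286 and 4066, because fewer features are tested. Calls were lost for 7 genes with no filter (CYP39A1, GPX3, GPX7, HSD17B10, PRDX3, PRDX4 and TXNDC11, adjusted p 0.0542 to 0.17), 5 on the larger prefix, 3 with array weights, 2 with the prefix block, 1 with trend and robust eBayes and 1 with equal medians, which shifted arrays by up to 0.0724. Calls were gained by AKR1A1 with the mean of probe sets (adjusted p = 0.0428), TXNDC10 with no filter (0.0212), TXNL4B with equal medians (0.0431), and HSDL2 and TXN with the prefix block (0.0458 and 0.0481).

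The 7 genes without a call that are named next crossed 0 under some alternative. AKR7A2 read -0.01 with array weights, -0.00 on the arrays of the larger prefix and -0.05 with equal medians and without the 2 utricle arrays with CALB1 above 4. Without those arrays AKR1E2-13067 read -0.03 and DHRS2 -0.16, and DHRS2 read -0.01 on the larger prefix. With equal medians GSTA2_CHICK read -0.02 and TXNDC4 -0.03. Leaving out 1 array at a time, the differences ran from -0.05 to 0.05 for AKR7A2, -0.13 to 0.24 for DHRS2, -0.03 to 0.08 for GSTA2_CHICK, -0.03 to 0.09 for TXNDC4, -0.02 to 0.22 for AKR1E2-13067, -0.23 to 0.16 for ALDH6A1 and -0.07 to 0.00 for TXNDC12. The cause was not tested. Signals under 4 were too close to the background for their size to be read.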
